A study of Mus musculus with 11 samples.

Results

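The germline and meiotic genes described here are Dazl, Sohlh2, Stk31, Hormad1, Tex19.1, Sycp3, Sycp1, Mael, Ddx4 and Syce2. They were listed by symbol and matched through their Ensembl IDs, and all 10 were found among the 22369 genes of the count table. Messenger RNA had been sequenced from 11 clonal lines of mouse embryonic stem cells, with 1 library per clone, and all clones form 1 group without a treatment or a control. The parental line EBRTcH3 makes the tetracycline-regulated transactivator tTA under control of the ROSA26 locus. Each clone also carried multiple barcoded piggyBac reporters driven by the mouse PGK promoter and was grown from a single colony of cells sorted for high eGFP. The cells were kept in medium conditioned by BRL cells, with leukemia inhibitory factor, the MEK inhibitor PD0325901 and the GSK-3 inhibitor CHIR99021. The clones are named 16 to 26 after their labels. Because each clone gave 1 library, the spread between clones cannot be told apart from the spread between libraries. No p-value given here separates clone from library.

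Germline genes of this kind are silent in most body cells, where their CpG-rich promoters carry DNA methylation. Embryonic stem cells held with both inhibitors are in a naive state and are known for low genome-wide methylation. A second layer of repression is known in these cells: the factors MGA and MAX bind E-box sequences, E2F6 binds E2F-type sequences, and both recruit a variant Polycomb complex with PCGF6 and L3MBTL2. The RNA libraries described here do not measure DNA methylation. The members act at different steps of germ cell life. DAZL is an RNA-binding protein that controls translation in germ cells, SOHLH2 is a basic helix-loop-helix transcription factor of spermatogonia and young oocytes, and STK31 is a germ cell protein with a tudor and a kinase domain. HORMAD1 coats unsynapsed chromosome axes in meiosis. SYCP3 builds the lateral, SYCP1 the transverse and SYCE2 the central elements of the synaptonemal complex, which joins paired chromosomes. MAEL and the RNA helicase DDX4 take part in the piRNA pathway, which silences transposons, and TEX19.1 is known for the control of retrotransposons.

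Counts in genes totalled 10846005 to 16868500 per library (median 14378599), and levels are in CPM, a gene's count scaled to a common library size after TMM normalization. A value with ± is the mean and SD of all 11 clones unless stated otherwise. The cells carried the markers of embryonic stem cells: 7 of 7 markers were tested, summed to 6096 to 7919 CPM per clone, and 0 were called variable by edgeR or under the DESeq2 dispersion trend (2 at an unadjusted p under 0.05). Markers of later germ cells were close to absent. Of 7 late spermatid markers 0 reached a mean of 1 CPM, 5 had at most 3 counts in any library, and Prm2 was at 0 in all. Of 7 oocyte markers 1 reached that mean, Zp3 at 12.4 ± 4.38 CPM, while Zp1, Zp2 and Oosp1 had at most 3 counts in any library. Of 10 somatic gonad markers 4 were tested, with Star at 10.6 to 29.3 CPM and with Wt1 and Nr5a1 at no more than 3 counts, and the list summed to 18.02 to 35.6 CPM. Fibroblast markers summed to 9.52 to 25.8 CPM, with Pdgfrb at 11.0 ± 4.65 and Thy1 at 3.04 ± 1.36 CPM, and with Col3a1, Postn, Lum and Dcn at no more than 3 counts. Of the 3 tested, Col1a1 (1.17 ± 1.29 CPM) was called variable by edgeR (adjusted p = 0.00477), and 0 were called under the DESeq2 dispersion trend. Markers of 2-cell-like cells summed to 1.59 CPM in clone 17 to 26.3 CPM in clone 26, and 3 of 5 tested were called variable by edgeR, namely Zscan4c (adjusted p = 0.0014), Zscan4d (9.02e-05) and Tmem92 (0.00403). The part of these other cell types in the member values was not tested.

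The promoters of the members are shown because the rule that chose the genes speaks of control by methylation, and CpG density and the 2 motifs are features of that control. The windows run from 250 bases before to 50 bases after the start site and come from RefSeq on GRCm38.p6. All 10 members were matched, with 13 windows in all since 3 of them have a pair of start sites. The 5 printed are those of the members whose levels moved most between clones. They lie at chr17:50293571-50293870 (minus strand) for Dazl, chr3:55181794-55182093 (plus) for Sohlh2, chr6:49395289-49395588 (plus) for Stk31, chr3:95559427-95559726 (plus) for Hormad1 and chr10:88459337-88459636 (plus) for Sycp3. Capitals mark matches to the E-box CACGTG and to the E2F-type motif GCGGGA on either strand.
Dazl: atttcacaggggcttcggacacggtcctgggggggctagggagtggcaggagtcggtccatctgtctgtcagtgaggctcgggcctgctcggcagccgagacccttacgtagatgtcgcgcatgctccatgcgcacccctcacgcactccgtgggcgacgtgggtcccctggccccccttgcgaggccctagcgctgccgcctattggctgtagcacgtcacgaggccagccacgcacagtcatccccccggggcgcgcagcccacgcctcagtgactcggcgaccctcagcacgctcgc
Sohlh2: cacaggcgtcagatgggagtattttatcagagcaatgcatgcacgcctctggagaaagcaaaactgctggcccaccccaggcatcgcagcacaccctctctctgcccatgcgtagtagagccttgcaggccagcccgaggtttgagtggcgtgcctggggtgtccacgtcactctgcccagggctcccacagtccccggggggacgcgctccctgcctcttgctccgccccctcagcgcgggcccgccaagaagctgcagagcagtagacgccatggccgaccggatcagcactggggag
Stk31: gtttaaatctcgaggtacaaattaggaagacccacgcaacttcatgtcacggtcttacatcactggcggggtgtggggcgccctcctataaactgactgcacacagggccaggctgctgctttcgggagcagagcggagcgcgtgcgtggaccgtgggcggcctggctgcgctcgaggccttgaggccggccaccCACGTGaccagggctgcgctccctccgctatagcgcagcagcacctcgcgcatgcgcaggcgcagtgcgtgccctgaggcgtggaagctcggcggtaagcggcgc
Hormad1: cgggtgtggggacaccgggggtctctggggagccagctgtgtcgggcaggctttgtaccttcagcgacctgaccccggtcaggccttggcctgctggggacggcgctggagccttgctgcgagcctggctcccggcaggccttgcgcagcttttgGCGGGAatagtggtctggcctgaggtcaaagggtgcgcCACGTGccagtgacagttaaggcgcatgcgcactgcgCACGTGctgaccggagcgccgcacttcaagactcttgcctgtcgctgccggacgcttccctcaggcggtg
Sycp3: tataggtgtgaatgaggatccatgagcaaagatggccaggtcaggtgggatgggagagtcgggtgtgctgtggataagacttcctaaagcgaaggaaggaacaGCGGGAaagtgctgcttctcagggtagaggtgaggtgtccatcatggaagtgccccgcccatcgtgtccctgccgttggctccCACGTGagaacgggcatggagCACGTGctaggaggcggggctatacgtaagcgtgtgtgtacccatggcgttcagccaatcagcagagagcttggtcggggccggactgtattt

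Each of the 13 windows had a CpG observed-over-expected ratio of at least 0.5, as did 41.9% of the 32841 promoter windows in the table. The ratio was lowest for Sohlh2 (0.545, with 17 CpGs) and highest for Ddx4 (0.978, with 38 CpGs), against a median of 0.384 over all windows. The E-box CACGTG, which reads the same on both strands, was present in 7 of 10 members (Stk31, Hormad1, Sycp3, Sycp1, Mael, Ddx4 and Syce2). Counted by window it occurred in 9 of the 13 member windows, in 7.15% of all windows and in 10.9% of windows with a ratio of at least 0.5. Hormad1 held it at positions -57 and -20 from its first start site and Sycp3 at -64 and -43, counted to the first base of the match with the first transcribed base as 1. The motif GCGGGA was found in 7 of 10 members as well. By window it was in 9 of the 13, against 6561 of all 32841 windows and 40.2% of those with a ratio of at least 0.5. Of the members 6 held both motifs, and Dazl and Sohlh2 held neither. By window both were in 7 of the 13, against 1.99% of all windows, a share not matched for the CpG ratio. No match overlapped a match of the other motif. These are matches of letters in a fixed window and do not show binding.

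**Figure D1:**
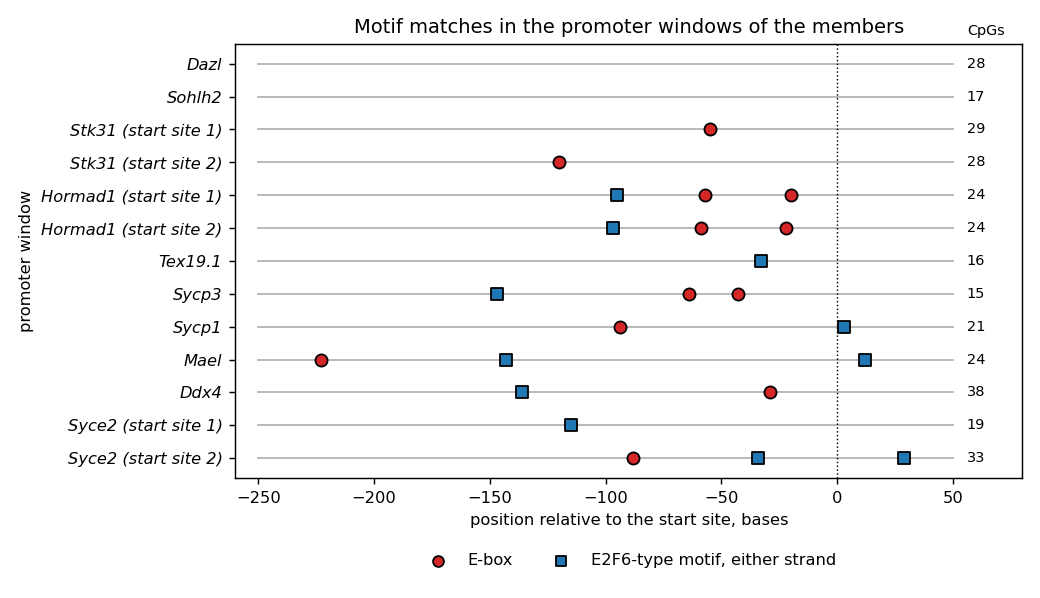
Positions of motif matches in the 13 promoter windows of the members, in bases from the start site, with circles for the E-box and squares for the E2F-type motif; the number at the right is the CpG count of the window. The windows of Dazl and Sohlh2 hold no match, and 6 members hold both motifs.

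Transcripts of all 10 members were counted in every clone. For Sycp3 and Syce2 the counts can include reads from a gene that overlaps on the opposite strand, and that part was not tested. The lowest count of any member in any library was 53, for Ddx4 in clone 26, against a detection floor of 3 counts, or 0.173 to 0.284 CPM. In these bulk libraries a smaller share of expressing cells and less RNA per cell cannot be told apart. Levels of different genes were compared per kilobase of annotated exon (CPM per kb). On that scale Tex19.1 was highest (22.6 ± 3.71 CPM per kb), followed by Sohlh2 (16.4 ± 9.06), Syce2 (16.4 ± 5.34), Dazl (11.6 ± 6.66), Hormad1 (10.6 ± 4.53) and Stk31 (9.72 ± 4.31). Sycp3 (7.66 ± 4.97) was near the median of 6.98 CPM per kb over 12346 tested genes with a known length, and Sycp1 (3.77 ± 0.669), Mael (3.48 ± 0.912) and Ddx4 (2.61 ± 0.962) were below it. Tex19.1 exceeded 80.6% of tested genes and Ddx4 27.6%. For scale, the pluripotency factor gene Pou5f1 stood at 384 ± 32.01 CPM per kb. Neighbours in this order were not separated: the ranges over clones overlapped for each of the 9 neighbouring pairs. Syce2 was above Dazl in 10 of 11 clones and Sycp3 above Sycp1 in 10 of 11, while Sohlh2 was above Syce2 in only 3 of 11.

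**Figure D2:**
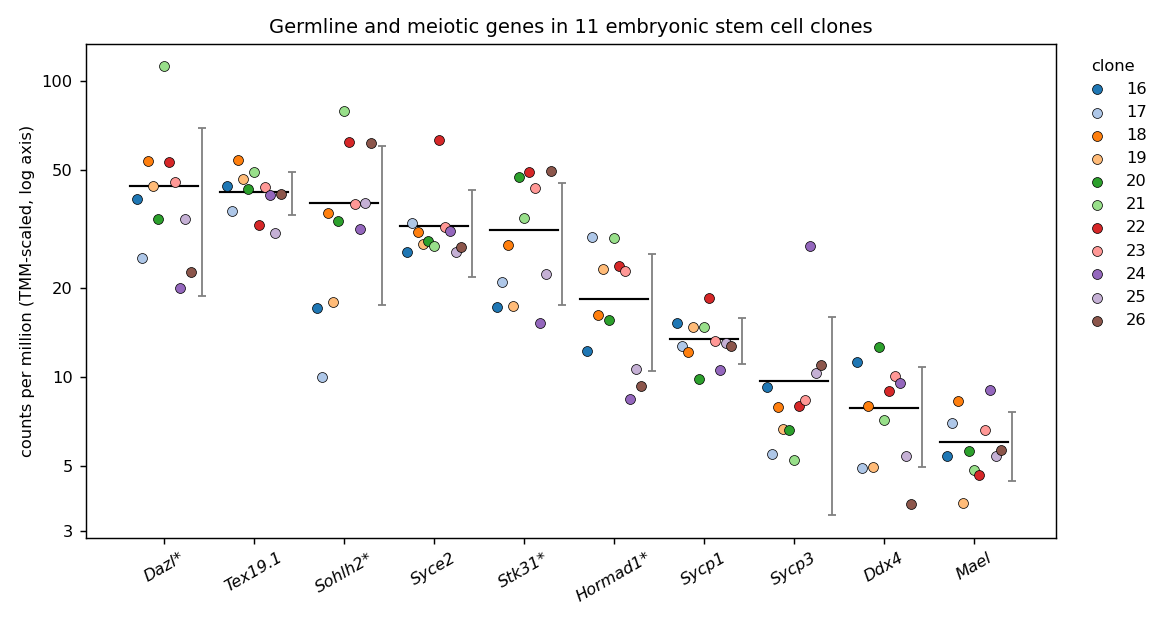
Level of each member in the 11 clones, in CPM on a log axis, with 1 point per clone, a black line at the mean and a grey bar for ±1 SD; an asterisk marks the members called variable. Dazl in clone 21, Syce2 in clone 22 and Sycp3 in clone 24 sit apart from the other points of their gene.

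Of the 10 members 4 spread more between clones than genes of like abundance: Dazl, Sohlh2, Stk31 and Hormad1. The test was a goodness-of-fit test of an intercept-only negative binomial model in edgeR with trended dispersion, with Benjamini-Hochberg adjustment over the 12479 genes that averaged 1 CPM or more. It called 959 genes (7.68%) at an adjusted p of 0.05, and 13.1% of all tested genes and 5 of 10 members had an unadjusted p under 0.05. The SD of log2(CPM + 1) over clones had a median of 0.55 over the members and of 0.24 over all tested genes. It was above the median of all tested genes in 9 of 10 members, and 5 of 10 lay in the top 10% of tested genes. This SD is not matched for abundance. Tex19.1 and Mael count among the 9, although their coefficients of variation (16.4% and 26.2%) were below the dispersion trend (19.7% and 36.2%). The list was drawn up with results of these clones known, so its count is a description of these genes.

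Dazl, the translational regulator, had the lowest level of 19.9 CPM in clone 24, a median of 40.0 CPM and the highest level of 112 CPM in clone 21. Clone 21 stood alone, with the next clone, clone 18, at 53.9 CPM. The edgeR test gave an adjusted p of 3.88e-08, and without clone 21 the adjusted p was 0.0523, so the call rests on that clone. Set against the other 10 clones, at 37.3 ± 12.2 CPM (SD, n = 10), clone 21 was higher by 1.59 ± 0.39 (SE) on the log2 scale. This contrast did not pass the edgeR quasi-likelihood test after adjustment over 137269 pairs of gene and clone (adjusted p = 0.202).

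Sohlh2, the transcription factor gene, was at 10.01 CPM in clone 17, the lowest, had a median of 35.9 CPM and was at 79.6 CPM in clone 21, the highest. Its highest clone was at 7.95 times the lowest, the largest such ratio of the 10 members. Clones 17, 16 and 19 were low, at 10.01, 17.1 and 17.9 CPM, while clones 21, 22 and 26 were high, at 79.6, 62.4 and 62.1 CPM. Its adjusted p was 2.72e-11 in the edgeR test. That was the lowest adjusted p of the 10 members. The neighbouring gene Dclk1, which encodes a doublecortin-like kinase, was low (4.34 ± 2.82 CPM) but was also called variable, and the other neighbour, Ccdc169, was at 0.472 ± 0.251 CPM. Over the 11 clones, within shared libraries, r with Sohlh2 was 0.80 for Dclk1 and 0.64 for Ccdc169. For the neighbours of the other members r ran from -0.51 (Mybpc1 with Sycp3) to 0.87 (Farsa with Syce2), with 0.85 for Gcdh with Syce2. The genes around Syce2 had a median shift of 0.53 in clone 22, and Gcdh overlaps Syce2. Apart from the neighbours of Syce2 the highest r was 0.63, for Fam221a with Stk31. The cause of these values was not tested.

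Stk31 was lowest in clone 24 (15.2 CPM) and highest in clone 26 (49.9 CPM), with a median of 28.0 CPM. Clones 24, 16, 19, 17 and 25 were at 15.2 to 22.3 CPM, and clones 23, 20, 22 and 26 at 43.6 to 49.9 CPM. Clones 18 and 21 lay between them, at 28.0 and 34.5 CPM, and a split into a low and a high set was not tested. The adjusted p in the edgeR test was 8.01e-05.

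Hormad1, the axis protein gene, was lowest in clone 24 (8.45 CPM) and highest in clone 17 (29.6 CPM), with a median of 16.2 CPM. Clones 24, 26 and 25 were at 8.45 to 10.7 CPM, and clones 17 and 21 at 29.6 and 29.5 CPM. Its adjusted p was 0.0141 in the edgeR test. The call was lost without clone 21 (adjusted p = 0.0740) and without clone 24 (adjusted p = 0.0577).

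The other 6 members did not pass the test of spread, which does not show that their levels were equal between clones. Tex19.1, Sycp1 and Mael had an adjusted p of 1 in edgeR, with ranges of 30.7 to 54.2, 9.84 to 18.5 and 3.75 to 9.01 CPM. Tex19.1 is next to its paralogue Tex19.2, which was at 1.10 ± 0.806 CPM, and the split of reads between such copies is uncertain, since no source used here describes it. Ddx4 was lowest in clone 26 (3.71 CPM) and highest in clone 20 (12.7 CPM; adjusted p = 1 by edgeR). At a mean of 7.87 CPM its coefficient of variation of 36.8% was near the 33.5% of the dispersion trend. Syce2 and Sycp3 each had 1 high clone and are described next.

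**Figure D3:**
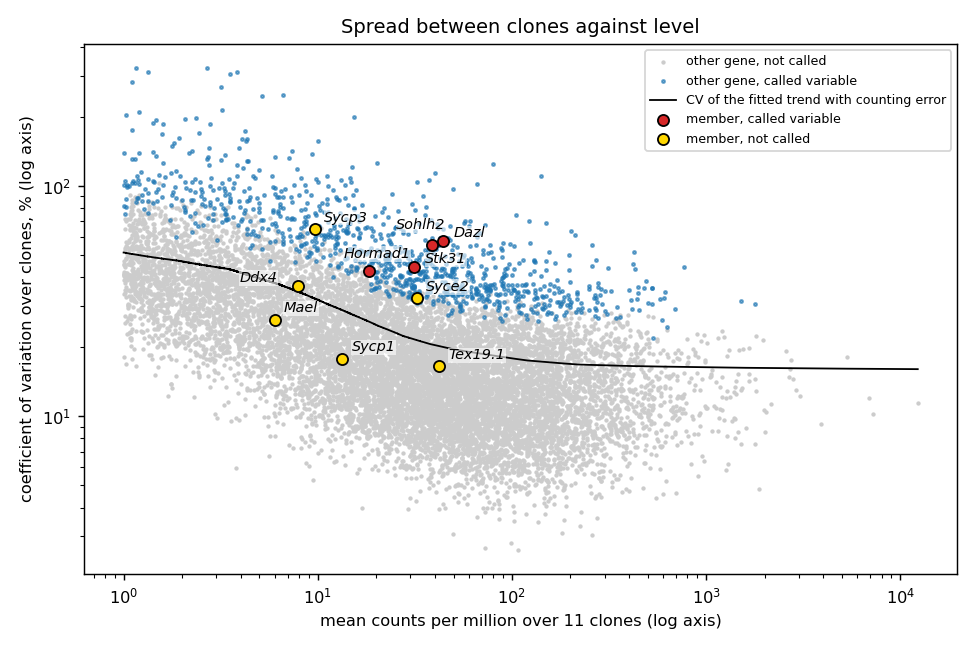
Coefficient of variation over the 11 clones, in %, against the mean level in CPM, both on log axes, for each of 12479 tested genes; red and yellow points are members that were and were not called variable, and the line is the fitted trend with counting error. Dazl, Sohlh2, Stk31 and Hormad1 lie above the line, as do Sycp3 (64.8%, the highest of the members), Syce2 (32.5%) and, by little, Ddx4 (36.8%), which were not called, while Tex19.1, Sycp1 and Mael lie below it.

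Each clone was then set against the other 10 to ask which members stood apart in single clones. Sycp3 was higher in clone 24 and Syce2 was higher in clone 22, which made 2 calls among the 110 pairs of member and clone, both upward. Over all 137269 pairs 0.213% were called in either direction, 144 higher (0.105%) and 149 lower (0.109%), and an unadjusted p under 0.05 was found in 5.92% of all pairs and in 7 of the 110 member pairs.

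Sycp3, the lateral element gene, was at 27.8 CPM in clone 24, against 7.87 ± 1.93 CPM (SD, n = 10; 5.24 to 11.0 CPM) in the others. The median over all clones was 7.98 CPM, and clone 24 did not overlap the others. The log2 fold change was 1.82 ± 0.30 (SE; edgeR quasi-likelihood test, adjusted p = 0.0349). Over 15 alternatives the fold change stayed between 1.77 and 1.89, while the adjusted p crossed the threshold in 6: without clones 18, 19, 20, 22 or 23 (0.0655, 0.0525, 0.0637, 0.0595 and 0.0676) and with the level of neighbouring genes in the model (0.0712). In the test of spread over clones Sycp3 missed the threshold (adjusted p = 0.0655 by edgeR) and passed it in 8 of 16 alternatives, with 0.0116 under the DESeq2 dispersion trend and 1 without clone 24. Sycp3 overlaps Chpt1, a phospholipid synthesis gene on the opposite strand, at 22.5 ± 4.81 CPM. The library kit, TruSeq RNA, does not mark strand, so reads from the overlap could not be told apart by strand. Chpt1 was not called variable.

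Syce2, the central element gene, was at 63.3 CPM in clone 22, against 29.2 ± 2.39 CPM (SD, n = 10; 26.5 to 33.1 CPM) in the others. The median over all clones was 28.9 CPM, and clone 22 did not overlap the others. The log2 fold change was 1.11 ± 0.13 (SE; edgeR quasi-likelihood test, adjusted p = 0.00771). In clone 22 the genes around Syce2 were higher as well. The 24 nearest expressed genes on chromosome 8, 12 on each side, had a median shift of 0.53 in log2(CPM + 1) against the median clone, while Syce2 itself was shifted by 1.11. With the neighbour shift in the model the log2 fold change was 0.57 and the call was lost (adjusted p = 0.265 by edgeR). Syce2 overlaps Gcdh, the glutaryl-CoA dehydrogenase gene on the opposite strand, at 50.4 ± 6.32 CPM, and reads from that overlap could not be told apart by strand either.

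The members lie on 8 chromosomes, and the same neighbour values were set beside the others. Sohlh2, Hormad1 and Sycp1 share chromosome 3, whose genes around them were higher in clone 16 by 0.54, 0.55 and 0.54. In that clone Sohlh2 was at -1.03 and Hormad1 at -0.38 on the same scale, below the median clone, and Sycp1 was at 0.21. Around Dazl the neighbour shift lay between -0.08 and 0.05, with 0.00 in clone 21, where Dazl was at 1.47. Around Sycp3 in clone 24 it was 0.01, and Sycp3 was at 1.68. These shifts use genes that averaged 5 CPM or more, so Dclk1 and Ccdc169 beside Sohlh2 are not among them. With the neighbour shift in the model 5 members were called variable, the 4 named above and Sycp3 (adjusted p = 0.0457 by edgeR).

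**Figure D4:**
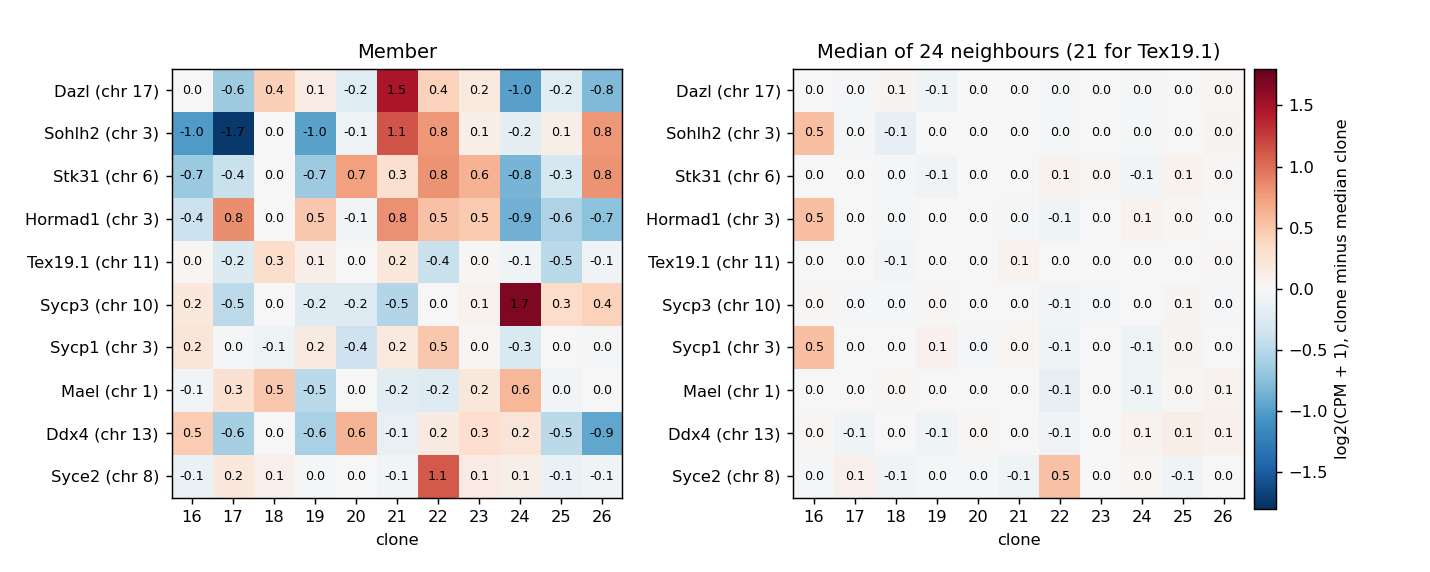
Shift of each member (left) and of its nearest expressed neighbours (right) in each clone, as log2(CPM + 1) minus the median clone, with red for higher and blue for lower. Neighbour shifts of about 0.5 appear in clone 16 for the 3 members on chromosome 3 and in clone 22 for Syce2, and all other neighbour shifts are smaller than those.

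No clone was high or low for all members. Clone 24 had the lowest level of Dazl, Stk31 and Hormad1 and the highest of Sycp3 and Mael, and clone 21 had the highest of Dazl and Sohlh2 and the lowest of Sycp3. Over the 45 pairs of members, Pearson r of log2(CPM + 1) over the 11 clones ranged from -0.80 to 0.67, with a median of 0.09 and 27 of 45 values above 0. The median over all 77856481 pairs of tested genes was 0.00. An absolute r of at least 0.6 was found in 4 of 45 member pairs (8.89%), against 11.1% of all gene pairs, so strong correlations were no more frequent among the members than among all tested genes.

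Hormad1 and Sycp3 moved in opposite directions, with r = -0.80 (permutation test, two-sided, p = 0.00011, adjusted p = 0.00495 over the 45 pairs). Spearman's rho was -0.85 (permutation p = 0.00142, adjusted p = 0.0639), so the rank measure missed the threshold. Without clones 17 and 24, the farthest from the median of Hormad1, r was -0.82. Without clone 24 alone r was -0.86, but the adjusted p over the 45 pairs was 0.0972 in the permutation test with 10 clones. Among all pairs of tested genes, 1.36% had an absolute r at least as large.

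The next strongest pairs did not pass the adjustment in the permutation test. Sohlh2 and Stk31 had r = 0.67 and rho = 0.71 (permutation p = 0.0249 and 0.0182, adjusted p = 0.459 and 0.272), and r was 0.76 without clones 17 and 21. Dazl and Hormad1 had r = 0.62 and rho = 0.60 (permutation p = 0.0385 and 0.0569, adjusted p = 0.459 and 0.513). That relation rested on clones 21 and 24: r was 0.32 without them, and it was 0.87 and passed the adjustment without clone 17. Sycp1 and Mael had r = -0.62 and rho = -0.76 (permutation p = 0.0408 and 0.00826, adjusted p = 0.459 and 0.186), and r was -0.85 without clones 20 and 22 and -0.31 after the neighbour shift was subtracted. Among the 3 genes of the synaptonemal complex, r was -0.34 and rho -0.07 between Sycp3 and Sycp1 (permutation p = 0.295 and 0.838) and r was -0.05 and rho -0.25 between Sycp3 and Syce2 (permutation p = 0.844 and 0.470). Sycp1 and Syce2 had r = 0.52 and rho = -0.11 (permutation p = 0.137 and 0.751, adjusted p = 0.767 and 0.924), and r was -0.56 without clones 20 and 22 and 0.75 after the neighbour shift was subtracted.

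**Figure D5:**
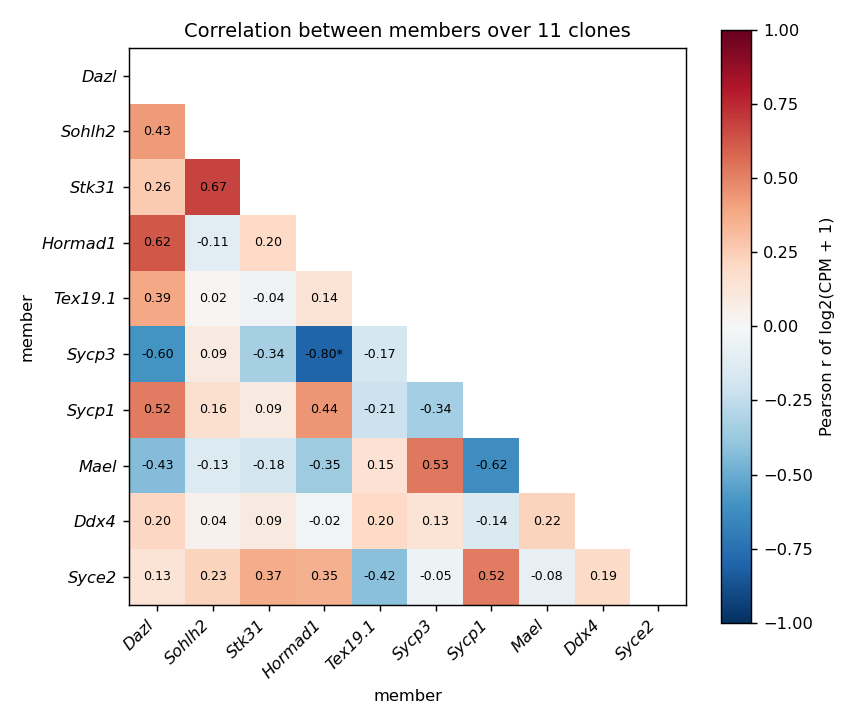
Pearson r of log2(CPM + 1) over the 11 clones for each of the 45 pairs of members, with red for positive and blue for negative values and an asterisk for an adjusted p under 0.05. Only Hormad1 and Sycp3, at -0.80, carry the asterisk.

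Genes with the most similar pattern were taken, for each member, as the 3 with the highest r among 10353 genes that averaged 5 CPM or more, over the same 11 clones. These are the extremes of many comparisons within shared libraries and are given without a test. For Dazl they were Camk2a (r = 0.95), Pycr1 (0.90) and Mllt3 (0.89), of which Pycr1, a proline synthesis enzyme gene, was called variable and was highest in clone 21, at 121 CPM. Sohlh2 was followed most closely by Alg1 (0.95), Tmcc1 (0.94) and Chchd3 (0.91), Stk31 by Fam185a (0.87), Rwdd4a (0.85) and Gcc1 (0.85), and Hormad1 by Sh3glb2 (0.94), Nipa1 (0.91) and Anapc11 (0.90). For Sycp3 they were Rsrc2 (0.93), the RNA helicase gene Ddx3x (0.93) and Leo1 (0.91), each highest in clone 24. For Syce2 they included Dhodh (0.96) and Triml2 (0.94), both on chromosome 8, as is Syce2, and highest in clone 22. Tex19.1 was closest to Fbln5 (0.89), Trib3 (0.88) and Tnks1bp1 (0.86), and Sycp1 to Lrrc45 (0.93), Tmem150a (0.90) and Zfp276 (0.89). Mael was closest to Exoc1, Zfp780b and Topbp1 (0.88 to 0.89), and Ddx4 to Nuak2, Eri2 and Urah (0.90 to 0.92). No other member appeared among these genes.

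Other germline genes were described from lists of the same pathways. Outside the 10 members, the lists of the synaptonemal complex and axis, meiotic recombination, meiotic entry, piRNA and transposon defence and other methylation-controlled germline genes held 79 genes. The primordial germ cell factors were kept as a list of their own and are not counted among them unless another list holds them. Of the 79 genes 75 were in the table, 51 were tested, 16 were called variable (31.4%, against 7.68% of all tested genes) and 0 of 561 pairs of gene and clone were called by edgeR (41 at an unadjusted p under 0.05, and 4 by the DESeq2 Wald test). The SD of log2(CPM + 1) had a median of 0.46 over these 51 genes. The count is a description, since the lists were drawn up with earlier results known.

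In the synaptonemal complex and chromosome axis list 4 of 10 tested genes were variable by edgeR. Beside Hormad1 these were its paralogue Hormad2 (1.76 CPM in clone 24 to 21.7 CPM in clone 19, adjusted p = 1.19e-06) and the cohesin genes Smc1b (5.29 CPM in clone 16 to 63.3 CPM in clone 17, adjusted p = 1.72e-12) and Stag3 (24.6 CPM in clone 26 to 112 CPM in clone 21, adjusted p = 5.62e-08). In the list of meiotic recombination genes 0 of 15 tested were variable by edgeR or under the DESeq2 dispersion trend. Over all tested genes 7.68% were variable by edgeR, so a count of 0 in 15 does not set this list apart. In it 1 gene had an unadjusted p under 0.05 by edgeR. The most abundant were Hsf2bp at 121 ± 12.7, Mlh3 at 69.6 ± 9.73, Trip13 at 69.5 ± 5.16, Tex15 at 25.6 ± 8.04 and Mnd1 at 15.3 ± 2.17 CPM. Spo11, the enzyme that makes meiotic breaks, had at most 3 counts in any library.

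In the meiotic entry list 4 of 7 tested genes were variable. Beside Dazl and Sohlh2 these were the retinoic acid target Stra8, at 1.58 CPM in clone 25 to 18.6 CPM in clone 19 (adjusted p = 1.35e-09 by edgeR), and Meioc, at 5.48 CPM in clone 17 to 32.6 CPM in clone 24 (adjusted p = 0.0142). Sohlh1, the partner of SOHLH2 in germ cells, was at 0.288 ± 0.243 CPM. Among 16 tested genes of the piRNA and transposon defence list 6 were variable: Stk31, the PIWI gene Piwil2 (11.1 to 63.4 CPM), the tudor genes Tdrd9 (2.78 to 21.9 CPM), Tdrd12 (29.6 to 99.01 CPM) and Rnf17 (82.5 to 193 CPM), and Fkbp6 (24.7 to 136 CPM). Piwil4 was at 0.272 ± 0.144 CPM.

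In the list of other methylation-controlled germline genes 6 of 14 tested were variable. These were Tex14 (40.4 to 112 CPM), Gpat2 (25.8 to 105 CPM), Tuba3a (8.98 to 75.6 CPM), Tuba3b (0.0752 to 3.33 CPM), Xlr3a (0.252 to 12.3 CPM) and Dppa3 (0.136 to 23.3 CPM). Tuba3a and Tuba3b, and Xlr3a and its relatives, are near-identical copies whose counts are uncertain. Among 9 tested genes of primordial germ cell factors Kit, Lin28a and Dppa3 were variable, and Kit, the stem cell factor receptor gene, was higher in clone 17, at 288 CPM against 114 ± 19.3 CPM in the others (SD, n = 10; log2 fold change 1.34 ± 0.20 SE, edgeR quasi-likelihood test, adjusted p = 0.0243). Prdm14 (63.8 ± 16.4), Tfap2c (48.2 ± 13.2) and Tcl1 (93.2 ± 8.65 CPM) did not pass the test of spread.

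The list of known repressors of germline genes and of genes that write or oxidise DNA methylation held 26 genes, all of them tested. By edgeR 3 were variable, beside 7.68% of all tested genes, so the 3 calls are not read as a trait of the list. The 3 genes were Tfdp1, the E2F partner (50.3 CPM in clone 17 to 175 CPM in clone 22), Dnmt3l, a cofactor of DNA methylation (154 CPM in clone 19 to 638 CPM in clone 16) and Tet2, a methylcytosine oxidase gene (308 CPM in clone 26 to 1005 CPM in clone 16). Mga (751 ± 77.5), L3mbtl2 (219 ± 39.7), Max (79.8 ± 13.2), Pcgf6 (73.8 ± 12.1) and E2f6 (38.9 ± 3.84 CPM) did not pass, nor did Trim28 (1794 ± 136), Tet1 (1061 ± 161), Uhrf1 (677 ± 117) and Dnmt1 (528 ± 63.9 CPM). Tfdp1 lies on chromosome 8 and Tet2 on chromosome 3, which held the shifted neighbours of members in the same 2 clones, while Dnmt3l lies on chromosome 10. Neighbour shifts are not given for these 3 genes, and a part of chromosome shifts in their levels was not tested. Tet3 had an adjusted p of 0.0530 by edgeR. Setdb1, a histone methyltransferase gene on chromosome 3, was higher in clone 16, at 357 CPM against 212 ± 19.06 CPM in the others (SD, n = 10; log2 fold change 0.75 ± 0.13 SE, edgeR quasi-likelihood test, adjusted p = 0.0479), where its neighbours were shifted by 0.53. Levels of the members were compared with those of these 26 genes over the 11 clones, which made 260 pairs. After adjustment over them 0 pairs passed the permutation test by Pearson r (lowest adjusted p = 0.369) and 0 by Spearman's rho (lowest adjusted p = 0.473), with 26 of the 260 pairs at an unadjusted p under 0.05 for r. These p-values crossed 0.05 near an absolute r of 0.6, which 11.1% of all pairs of tested genes reached. The 26 pairs are therefore not read as a link of members with repressors. The lowest unadjusted p was that of Dazl and Trim28 (r = -0.77, rho = -0.64, permutation p = 0.00377 and 0.0397), and r was -0.44 without clones 21 and 24. Not every pair weakened without these clones. Sycp3 and Ehmt2, the pair with the lowest r, had -0.79 over all clones and -0.80 without clones 21 and 24. Dazl and Tet3 had r = 0.77, and 0.79 without the same clones.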

How the data were processed

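The deposited values are raw read counts per gene in 1 table of 22369 mouse Ensembl IDs by 11 libraries, and no values were normalized by the authors. Per the submitters' processing notes, reads were processed with TopHat 1.4.0 and Bowtie 0.12.7, with mm9 and hg19 as builds. The name of the deposited file gives Ensembl release 66 and hg19, although every ID is a mouse one. Not given in the sources used here are the counter that made the counts and its treatment of strand and of multiply matching reads. Per the labels' protocols RNeasy and TruSeq RNA kits were used, and TruSeq RNA does not mark strand. A symbol was matched to 20777 IDs, while 1592 IDs with 0.401% of counts had none. GENCODE vM21 (GRCm38, a build later than mm9) supplied chromosome names, gene order and exon lengths only. Promoters came from RefSeq on GRCm38.p6.

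Tests were run on these counts with edgeR 4.0.16 under R 4.3.3, after TMM scaling (factors 0.971 to 1.04) and a filter of 1 CPM on the mean. Spread was tested by the goodness of fit (chi-square) of an intercept-only model at the trended dispersion. Each clone was set against the other 10 with the quasi-likelihood test. The SE is the log2 fold change over the root of F. Correlations used log2(CPM + 1) and 100000 permutations. Neighbour shifts are medians over the 12 nearest genes on each side with a mean of at least 5 CPM. Tex19.1, near a chromosome end, had 21 neighbours. The fitting and correlation steps were tested on simulated data with known answers. Alternatives used DESeq2 1.42.0, and all other steps ran in Python 3.11.15 (SciPy 1.17.1, NumPy 2.4.6).

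The members and the gene lists were chosen with earlier results of these data known. Genes named are the members, the neighbours, the 3 genes most like each member, and of each list those called variable and up to 5 with the highest mean. Not every gene under this rule is reported here. Spo11, Sohlh1, Piwil4, Tet3, Setdb1, Pou5f1, the overlapping genes, the markers and the E2f6, Max, Pcgf6 and L3mbtl2 genes were named after their values were seen.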

Additional observations from a re-analysis of the deposited data

How the results depend on the processing

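The number of members called variable was 4 to 5 under another scaling (DESeq2 size factors), no filter, a mean of at least 5 CPM, the DESeq2 dispersion trend and the neighbour shift in the model, and 2 to 5 when 1 clone was left out, with 2 without clone 21. Sohlh2 and Stk31 stayed called under all 16 alternatives. The count over all genes stayed between 817 and 1031. Calls of 1 clone against the others were less stable. Over all pairs the count was 1435 with the DESeq2 Wald test, 57 with the neighbour shift in the model and 152 to 278 with 1 clone left out, and the pairs of member and clone called were 0 with the neighbour shift and 0 to 2 with 1 clone left out. The cause of these changes was not tested. The count of member pairs called by correlation was 0 to 2 with 1 clone left out, and 1 with a pseudocount of 0.25, DESeq2 size factors or the neighbour shift subtracted. The median r over pairs stayed between 0.03 and 0.14. No paired analysis was possible because all clones form 1 group. With 1 library per clone, repeat libraries would be needed to separate clone from library, and members with few counts, such as Ddx4 (53 to 170 counts) and Mael (57 to 143), carry more counting error than Dazl (316 to 1653).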
